A study of Drosophila melanogaster with 4 samples.

Results

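Enriched regions of H3K79me1 were examined at the bases of the chromosome arms, in sequence assigned to heterochromatin and on chromosome 4 of Drosophila melanogaster. H3K79me1 is histone H3 carrying a single methyl group on lysine 79, a residue on the surface of the nucleosome core rather than in the tail. The regions came from chromatin immunoprecipitation followed by sequencing (ChIP-seq) of wild-type Oregon-R embryos at 14 to 16 h of development, with 2 ChIP libraries and 2 libraries of input chromatin, which skipped the immunoprecipitation. All 4 libraries share strain, genotype and stage, and whole embryos were crosslinked, so no cell type or tissue is resolved.

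The regions were chosen by position alone, and their scores and widths played no part. They are the regions on 4, 2LHet, 3LHet, 3RHet, XHet and YHet at any position, and those lying wholly in the proximal 2 Mb of 2L, 3L, 3R or X, that is, the 2 Mb nearest the centromere in the assembled arm. These 10 places span 15.3 Mb. They held 291 of the 5484 regions of replicate 1 (5.31%), 292 of the 5107 of replicate 2 (5.72%) and 325 of the 5330 of the list for the replicate set (6.10%). 2R and 2RHet were not analysed here. All positions are in FlyBase release 5, in which the proximal end lies at high coordinates on 2L, 3L and X and at low coordinates on 3R and 4.

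In flies H3K79 is methylated by grappa, a methyltransferase of the DOT1 family, and the mark usually lies within genes that are being transcribed. Dot1 was first known in budding yeast as a disruptor of silencing near telomeres. Pericentromeric heterochromatin is compacted, rich in repeats and transposon remnants and bound by HP1a, yet it holds essential genes that are transcribed within it, such as light at the base of 2L. Chromosome 4 is unusual because HP1a and the RNA-binding protein POF coat much of it while its genes remain active. XHet and YHet collect sequence from the heterochromatin of the sex chromosomes, and most of Y is silent in somatic cells.

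The first question was how much of each place carries the mark. The covered share, which is the percentage of base pairs inside regions, was highest in the proximal 2 Mb of 3R, with 39.7% in replicate 1 and 40.8% in replicate 2. Chromosome 4 came next with 24.0% and 26.7%, and the proximal 2 Mb of 2L had 16.7% and 17.7%. In both replicates 3R was covered more at its base than 4 or the base of 2L. XHet had 11.1% and 11.9%, the proximal 2 Mb of X 11.0% in both, and that of 3L 5.60% and 5.91%. The other Het sequences had lower shares. 2LHet had 3.74% and 4.13%, 3LHet 1.60% and 2.06%, 3RHet 0.556% and 0.607%, and YHet had no region in either replicate.

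This order was the same in both replicates, and the replicate values of successive places did not overlap. The closest pair was XHet and the base of X, where the difference of 0.508 percentage points ± 0.591 (SD, n = 2) was smaller than its own spread, so these places could not be told apart. Each other step in the order was larger than its SD. The smallest of these steps, 0.581 points ± 0.0358, lay between 3RHet and YHet, and the largest, 14.9 points ± 1.17, between the base of 3R and 4. The order held for a limit of 2 Mb and with all bases of a place counted in its length. Counted from the first to the last region, XHet was highest (79.4%). By that length 3RHet (15.6%) stood above the base of X (14.5%), and 2LHet (9.74%) above that of 3L (6.29%). With 1 Mb the bases of 2L (8.76%) and 3L (1.60%) moved down, that of 2L below the base of X and that of 3L below 2LHet and 3LHet. With 3 Mb the bases of X (17.1%) and 3L (15.9%) stood above XHet. An exact sign-flip test of 2 replicates has a smallest p of 0.5, and no difference was tested, and the SD here is the spread of 2 samples that may be technical replicates.

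**Figure D1:**
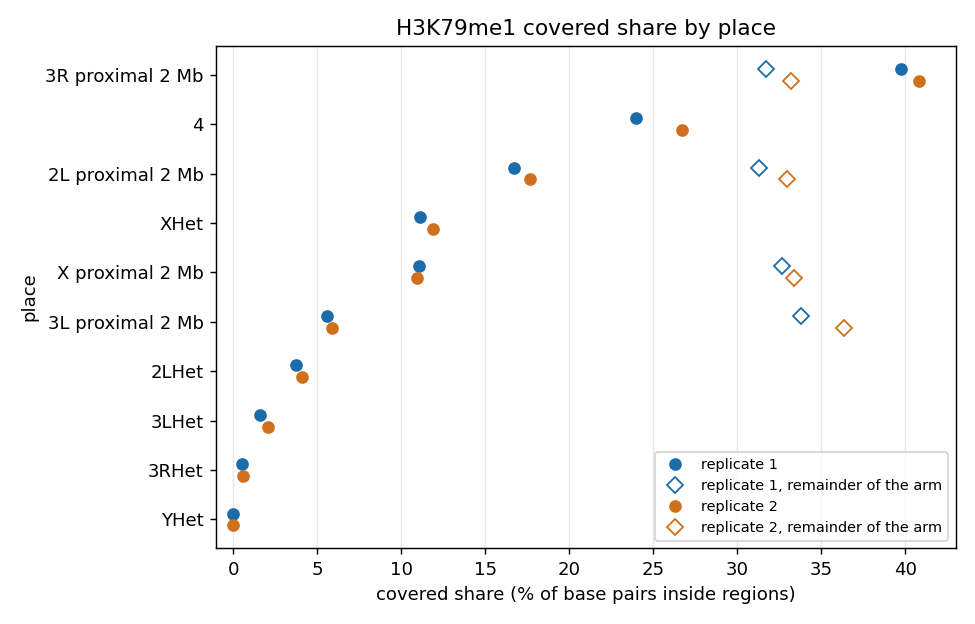
Covered share (x axis, % of base pairs inside regions) of the 10 places (y axis), with a filled circle for each ChIP replicate and an open diamond for the remainder of the same arm. The bases of 2L, 3L and X lie to the left of the remainder of their own arm, and the base of 3R lies to the right of its own.

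Each arm base was then set against the remainder of its own arm. On 3L the proximal 2 Mb was covered to 5.75% ± 0.225 (SD, n = 2) and the remainder to 35.1% ± 1.81, a difference of -29.3 points ± 1.58. On X the values were 11.0% ± 0.0519 and 33.0% ± 0.517, a difference of -22.0 points ± 0.569. On 2L they were 17.2% ± 0.660 and 32.1% ± 1.18, a difference of -14.9 points ± 0.519. The base of 3R went the other way, with 40.3% ± 0.765 against 32.5% ± 1.03, a difference of 7.81 points ± 0.269. Both replicates had the same sign on each of the 4 arms. Among consecutive windows of 2 Mb counted from the proximal end, the first window was the lowest of 11 on 2L, of 12 on 3L and of 11 on X. On 3R it ranked 3 from the highest among 13, and the window beside it, with 14.0%, was the lowest of that arm. The sign on 3R depended on where the base was taken to end. With 3 Mb in place of 2 Mb, the base of 3R was covered less than the remainder, by -1.04 points.

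The rule set its limits by position, and what lay beside them differed between arms. On 2L a 41.1-kb region from 20980332 to 21021412 crossed the limit at 21011545. It was not counted as a member, and its inner part was included in the covered share. The first member inside that limit ran from 21022906 to 21035810. On 3R the nearest regions lay 171 kb inside and 169 kb outside the limit, and on 3L 163 kb inside and 116 kb outside. On X the nearest member was 474 kb inside the limit, and the region outside it, a 13.97-kb region from 20382470 to 20396436, was 26.4 kb away. The limits on 3L, 3R and X therefore fell in empty stretches and cut no region.

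The next comparison asked whether low shares came with fewer regions or with narrower ones. Mostly there were fewer. On 3L the proximal 2 Mb held 10.5 regions per Mb ± 0.707 (SD, n = 2), which was 0.217 ± 0.0255 times the number per Mb in the remainder of the arm, while the mean width was 0.760 ± 0.0985 times as large. On X the number was 0.380 ± 0.0352 times and the mean width 0.881 ± 0.0995 times that of the remainder. On 2L both were lower to a similar extent, with 0.683 ± 0.0219 times the number and 0.766 ± 0.0256 times the mean width. On 3R the base exceeded the remainder in both, by 1.12 ± 0.0988 times in number and 1.11 ± 0.112 times in mean width.

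Chromosome 4 differed from the bases of 3L and X mainly in the number of regions. It carried 47.3 regions per Mb in each replicate, about as many as the remainders of 3L (48.4 ± 2.42) and X (48.1 ± 1.66). The bases of 3L and X held 10.5 ± 0.707 and 18.25 ± 1.06. Mean width on 4 was 5350 bp ± 409, near the 5485 bp ± 155 at the base of 3L and below the 6042 bp ± 380 at that of X. The remainders of the 4 arms had 6874 to 8180 bp. Wide regions were a smaller part of the list on 4 than in the remainders. Of the regions on 4, 10.2% ± 3.31 were at least 10 kb wide, against between 19.8% and 24.4% in the remainders of the 4 arms. The bases of 3L, 2L and X lay between, with 14.3% ± 0.964, 17.2% ± 5.53 and 17.9% ± 2.98. Among the 10 places, the base of 3R was the richest in such wide regions, with 34.8%, or 31 in each replicate. The Het sequences had 0 of them in replicate 1 and 1 in replicate 2, an 11.4-kb region on 3LHet from 2246491 to 2257922.

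Typical regions were similar in width across most places. The median width was 3866 to 4277 bp on 4, 3862 to 3987 bp at the base of X, 4158.5 to 4587.5 bp at the base of 3L and 3004.5 to 3858 bp at the base of 2L, giving in each case the lower and the higher of the 2 replicates. Medians at the base of 3R stood higher, with 5339 bp in replicate 1 and 7206 bp in replicate 2. In the remainders of the 4 arms the medians of the replicates ran from 3920.5 to 5075 bp. By the median, a region at the base of 3L or X was thus about as wide as one in the remainders, although the mean width was lower at both.

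**Figure D2:**
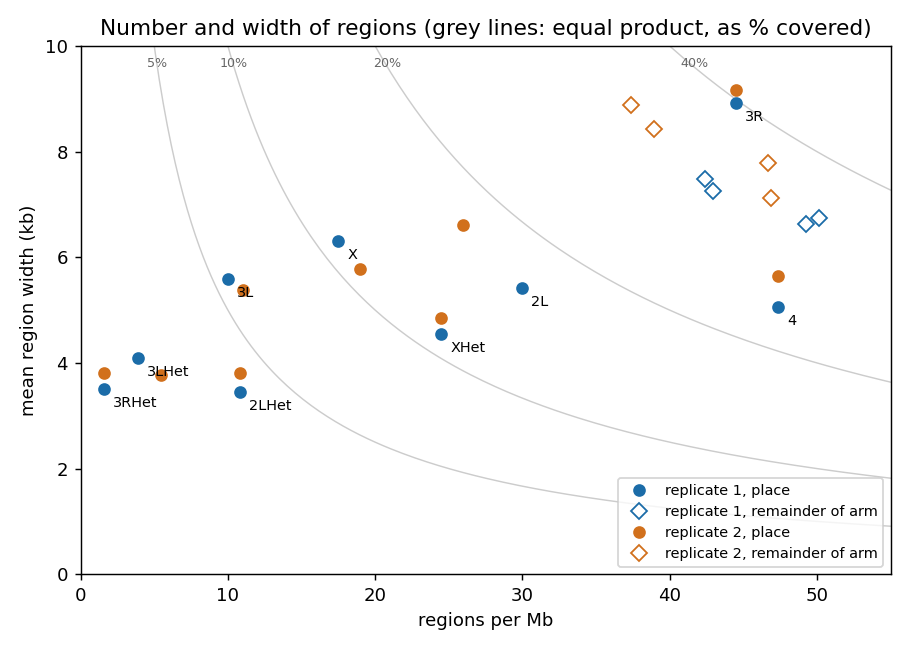
Regions per Mb (x axis) against mean region width (y axis, kb) for each place (filled circles, named beside replicate 1) and for the remainder of each arm (open diamonds), coloured by replicate. Grey lines join points whose number times width gives the same covered share; 4 sits at the right but low, the bases of 3L and X sit at the left, and YHet, with no region, is not drawn.

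Spacing showed how the regions of each place were arranged. The median gap between neighbours was short at the bases of 3R and X, 2070.5 and 2859.5 bp on 3R and 2149 and 2933 bp on X, close to the 2098 to 2843 bp of the remainders of the 4 arms. It was 4382 and 4481 bp on 4. At the base of 3L it was 22226 and 20346 bp, so neighbours there were typically far apart. The base of 2L gave 3695 and 7797 bp, and 3LHet 53397 and 4664 bp, so that the replicates differed by over 1.5 times in these places, as they did on 2LHet and XHet with at most 4 gaps each. On 3LHet there were 9 gaps in replicate 1 and 13 in replicate 2.

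On X short gaps occurred together with a low share, and its regions came in groups. Replicate-set members less than 20 kb apart were joined into runs, a distance chosen after the values were seen. The 38 members at the base of X formed 9 runs, of which the longest held 15 members in 116 kb, from 21146064 to 21261742. The 23 members at the base of 3L formed 13 runs, with at most 4 members in a run. The 93 members at the base of 3R also formed 13 runs, and the longest spanned 224 kb with 14 members, from 731886 to 956262. The 68 members at the base of 2L formed 22 runs, and 7 of these held a single member. On 4 the 74 members formed 13 runs, and the longest held 14 members in 141 kb. In the remainder of X 986 regions of the replicate set formed 132 runs. Grouping was thus not particular to the base of X.

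Regions of the 2 replicates covered 61.7% ± 1.70 (SD, n = 2) of the runs at the base of 3L, 65.4% ± 0.303 at the base of X, 59.8% ± 2.14 at the base of 2L and 63.9% ± 7.34 on the 5 Het sequences together. Single Het sequences ran from 0 on YHet and 56.6% ± 10.1 on 3LHet to 78.5% ± 3.70 on XHet. The remainders of the 4 arms gave 64.4% to 67.7%, the base of 3R 72.3% ± 1.35 and chromosome 4 56.3% ± 4.28. The runs took up 9.24% of the base of 3L, 16.8% of that of X, 27.9% of that of 2L, 45.0% of chromosome 4 and 55.7% of the base of 3R, against 47.9% to 53.0% of the remainders. On the 5 Het sequences they took up 2.59%. The runs were drawn from a list made from the same libraries, and joining at under 20 kb limits how low the share inside them can be, so that share is a description and was not tested.

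**Figure D3:**
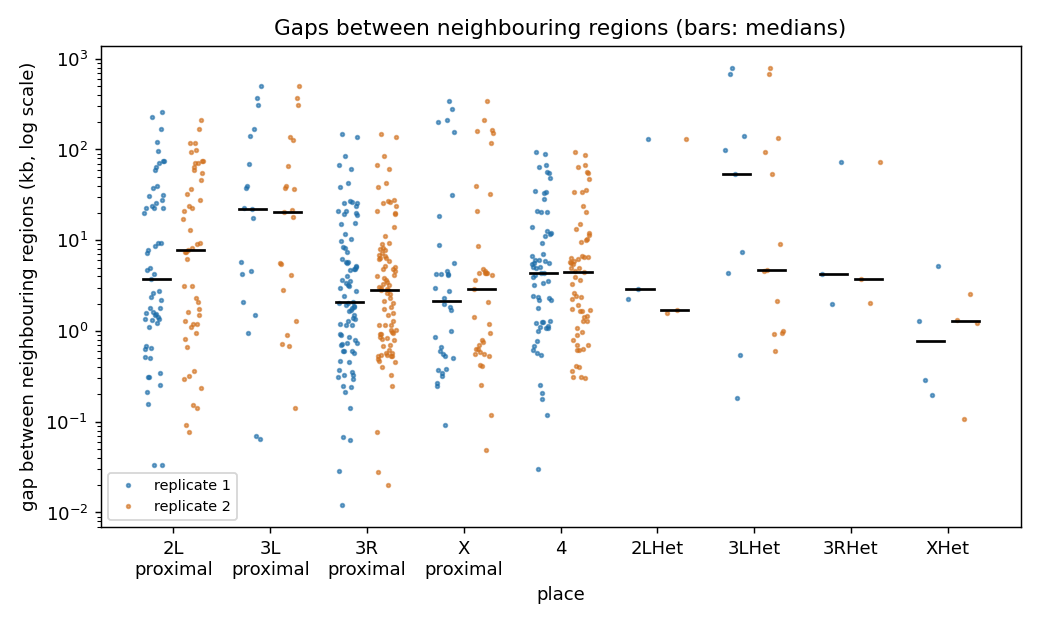
Gaps between neighbouring regions (y axis, kb, log scale) in 9 places (x axis), 1 point per gap, coloured by replicate, with black bars at the medians. At the base of X most gaps are below 10 kb and a separate group lies above 100 kb, whereas the base of 3L has a median near 20 kb; YHet is not drawn because neither replicate has a region there.

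Stretches of at least 50 kb without a region in either replicate filled much of the low places. They made up 83.9% of the base of 3L, in 7 stretches, and 81.1% of the base of X, also in 7. The base of 2L was divided more finely, with 12 stretches that made up 59.8% of it. The base of 3R had 33.4% in 6 stretches and chromosome 4 had 44.0% in 8, near the 35.2% to 42.9% of the remainders of the 4 arms. The longest stretch at an arm base, from 24029812 to 24530329 on 3L, spanned 501 kb. The longest on X, from 20422828 to 20897088, ran inward from the limit for 474 kb, and that on 2L, from 22478922 to 22689658, spanned 211 kb. On 3R the longest, from 1829085 to 2000000 (171 kb), touched the limit. On the 100-kb scale, 23 of the 60 bins at the bases of 2L, 3L and X (38.3%) had no region in either replicate, against 93 of 898 in the remainders of the 4 arms (10.4%). The bases of 3L and X gave 10 each, whereas 3 of 20 on 2L (15.0%) was near the 12.4% of its own remainder.

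The profile toward the centromere took a different form on each arm. In bins of 500 kb the share on 3L was lower at every step inward, from 11.7% ± 0.419 (SD, n = 2) in the outermost 500 kb of the proximal 2 Mb to 8.12% ± 0.384, 1.99% ± 0.0819 and 1.21% ± 0.0137 in the innermost. The bin just outside the limit had 48.9% ± 3.13, so most of the difference on 3L lay at that step. In bins of 250 kb the steps inward on 3L were uneven, with 6.19% followed by 10.0% and an empty bin followed by 2.42%. On 2L it was 40.2% ± 1.78 in the outermost bin, 11.1% ± 0.485 and 13.2% ± 0.319 in the next bins and 4.28% ± 0.0566 in the innermost. On average the outermost 500 kb of the base of 2L was thus covered about as much as the next bin outward, with 38.8% ± 1.48. In bins of 250 kb it was uneven, with 58.1% ± 2.36 in its outer part and 22.3% ± 1.20 in its inner part. Further inward on 2L, 1.84% was followed by 21.0%, and 2.91% by 5.65%.

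On X and 3R the outermost bin of the base was the poorest of the 4, and the share was highest in the bin beside it. On X the outermost 500 kb had 3.42% ± 0.0824, followed inward by 19.1% ± 0.548, 12.3% ± 0.420 and 9.14% ± 0.843. On 3R it had 14.2% ± 0.304, followed inward by 65.3% ± 0.0628, 51.3% ± 1.44 and 30.3% ± 1.25. From the peak at 1 to 1.5 Mb, the share on both arms was lower at each 500-kb step toward the centromere, in both replicates. In bins of 250 kb this did not hold on X, where 6.43% was followed inward by 18.2% and 5.31% by 13.0%, nor at the innermost step on 3R, from 29.4% to 31.1%. The innermost bin minus the outermost came to -35.9 points ± 1.72 on 2L, -10.5 ± 0.405 on 3L, 5.72 ± 0.925 on X and 16.1 ± 0.949 on 3R. On 3R the poor outermost bin belonged to a longer stretch of low coverage that ran outward from the limit to 4.5 Mb, in which bins had between 7.03% and 19.2%.

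**Figure D4:**
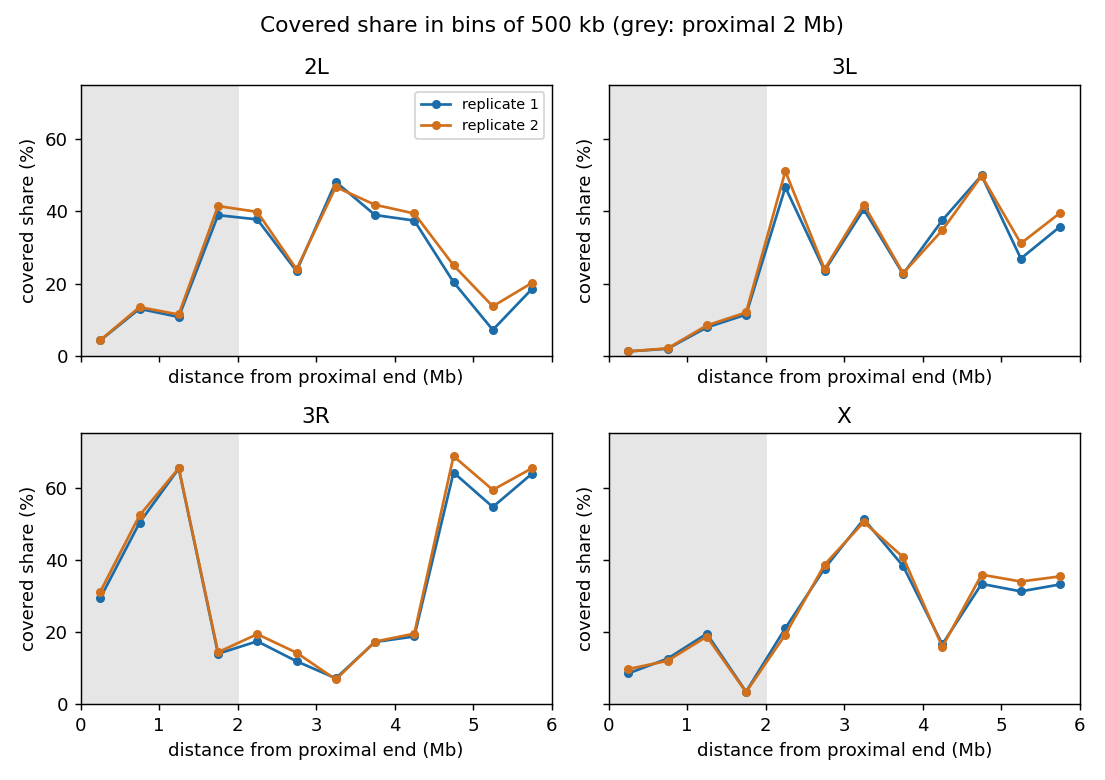
Covered share (y axis, %) in bins of 500 kb by distance from the proximal end (x axis, Mb) on 2L, 3L, 3R and X, 1 line per replicate, with the proximal 2 Mb in grey. On 3R the share peaks inside the grey area at 65.3% and stays below 20% from 1.5 to 4.5 Mb, whereas on 3L it is 48.9% just outside the grey area and 11.7% just inside it.

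At 100 kb the bases of 3L and X were made of filled bins among empty ones. At the base of 3L 10 of 20 bins were empty in both replicates, and the fullest had 25.8%. On X 10 of 20 were also empty, and the fullest had 45.6%. The base of 2L had 3 empty bins, and 3 were at least 50% covered in each replicate, all in its outermost 300 kb. The base of 3R had 2 empty bins and 7 at least 50% covered, and its fullest had 85.9%.

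**Figure D5:**
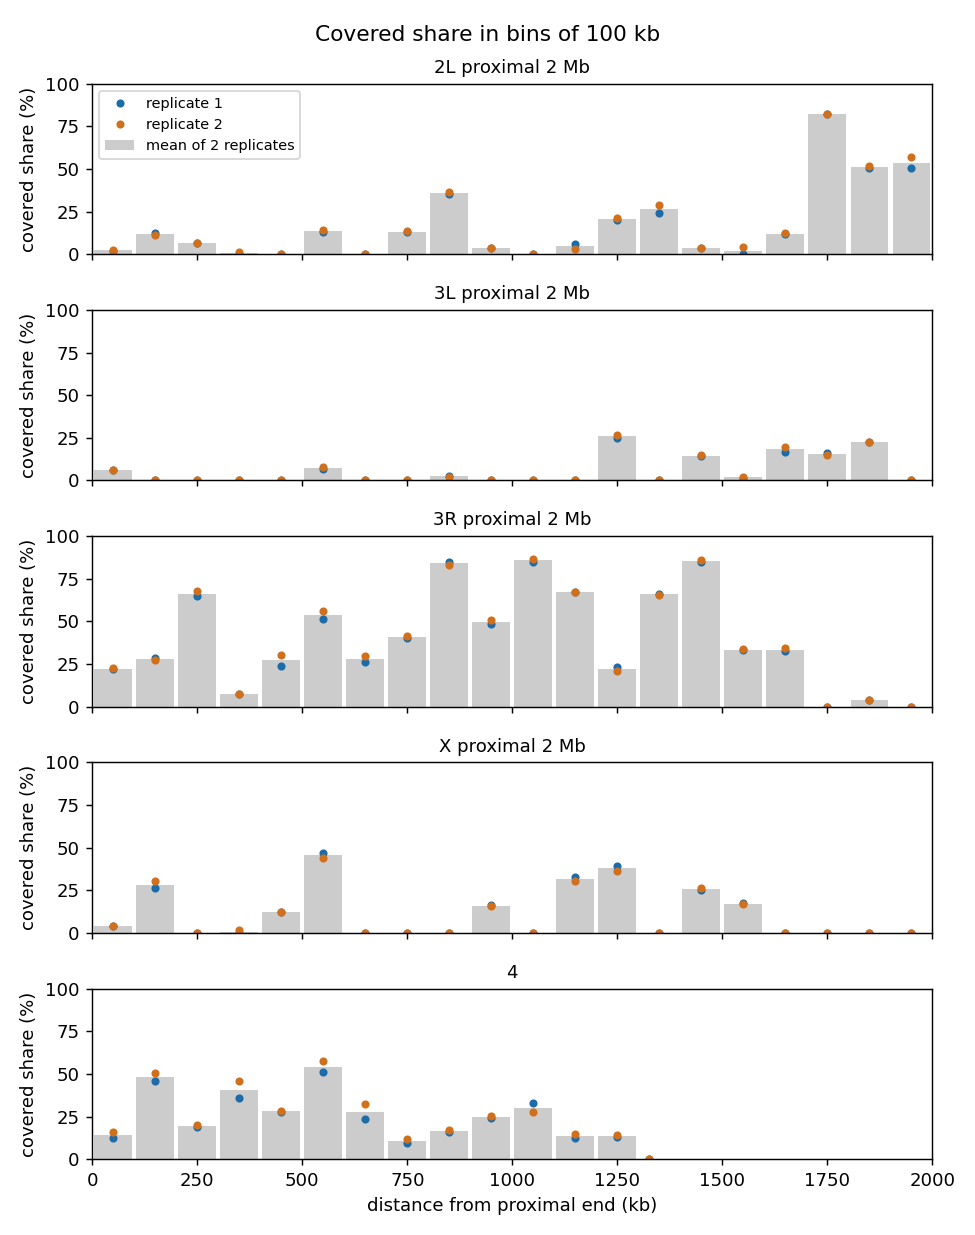
Covered share (y axis, %) in bins of 100 kb by distance from the proximal end (x axis, kb) for the bases of 2L, 3L, 3R and X and for all of chromosome 4; grey bars are the mean of the 2 replicates and points are the replicates. Filled bins at the bases of 3L and X stand among empty ones, while chromosome 4 has a region in every bin except the short last one.

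Regions reached close to the proximal ends of the assembled arms. On X the innermost member ran from 22413460 to 22417686 (4.23 kb), 5.14 kb from the end of the arm. Regions of replicate 1 covered 91.8% of it and those of replicate 2 98.1%, and its neighbour outward was 152 kb away. On 3L the innermost member ran from 24530346 to 24536550 (6.21 kb), 7.01 kb from the end, with 96.7% and 98.0% covered in the replicates. Outward of it, both replicates had no region for 501 kb. Both members were isolated, and both scored above the middle of the replicate-set list, at the 64.3rd and 73.8th percentile. On 3R the innermost member lay from 22966 to 25364 (2.40 kb). The base of 2L ended with a 2.30-kb member from 22958976 to 22961274, which was 50.3 kb from the end. The members on 3R and 2L scored below the middle of that list, at the 40.4th and 44.5th percentile. On 4 the first member lay from 59490 to 63582 (4.09 kb), at the 79.8th percentile.

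The widest member differed in place and width from base to base. On 3R it spanned 54.3 kb from 1097696 to 1151980, with 95.2% covered in replicate 1 and 96.2% in replicate 2, where it was split into 4 and 3 regions. The one on 2L, from 21093460 to 21122718, spanned 29.3 kb, that on X, from 22226554 to 22254810, 28.3 kb, and that on 3L, from 23310010 to 23331144, 21.1 kb. The widest member on X lay 168 kb from the proximal end, the nearest of the 4, while that of 2L lay 1889 kb from it.

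The highest-scoring members were of moderate width except on 2L. That of 3R ran from 612142 to 627288 (15.1 kb, 98.5th percentile), that of X from 21210252 to 21228970 (18.7 kb, 95.4th percentile) and that of 3L from 22864550 to 22874962 (10.4 kb, 92.7th percentile). In each replicate between 97.5% and 99.2% of each of these was covered. On 2L the highest score belonged to a region of 1001 bp from 21520974 to 21521974, at the 99.98th percentile of the list, which overlapped no region in either replicate.

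Along chromosome 4 the regions were spread more evenly. Each of its 13 full bins of 100 kb held a region in each replicate, and bin shares ran from 10.6% ± 1.53 (SD, n = 2) to 54.3% ± 4.61, the latter at 500 to 600 kb. Of 3 equal parts of 451 kb, the one nearest the centromere was covered to 27.2% ± 2.93, the middle one to 30.5% ± 3.07 and the distal one to 18.3% ± 0.194. The middle part exceeded the proximal one by 3.20 and 3.40 points in the replicates (mean 3.30 ± 0.141), and the distal part was the lowest in each. The distal end, from 1239344 to 1351857, was without a region in either replicate, and 2 members of the replicate set touched that stretch. The outermost of these, from 1244398 to 1246696, was also the member of 4 farthest from the centromere. The widest member lay from 529232 to 556884 (27.7 kb) and corresponded to 4 regions in replicate 1 and 2 in replicate 2. The highest-scoring one lay from 879682 to 887600 (7.92 kb, 96.6th percentile).

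The 5 Het sequences held 29 members of the replicate set in 5.99 Mb, and 46 of their 58 bins of 100 kb (79.3%) had no region in either replicate. Within them the mark was gathered at a few sites. On XHet all 5 members formed a single run of 29.9 kb, from 56916 to 86838, of which replicate 1 covered 75.9% and replicate 2 81.1%. The widest, from 65368 to 75672 (10.3 kb), was covered to 93.0% and 97.0%. Beside it lay members from 56916 to 64552 (7.64 kb), from 75722 to 80278 (4.56 kb), from 81702 to 83128 (1.43 kb) and from 84334 to 86838 (2.51 kb). The 1.43-kb member was found in replicate 2 alone, and the remaining 4 were found in both replicates. The remainder of XHet, 57.1 kb before the run and 117 kb after it, held no region in either replicate.

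On 3RHet 3 members formed a run of 19.2 kb in 2.52 Mb of sequence, from 1804878 to 1824088. They lay from 1804878 to 1808740 (3.86 kb), from 1812368 to 1817428 (5.06 kb) and from 1819056 to 1824088 (5.03 kb). The last had the highest score percentile there, 80.5 in replicate 1 and 92.8 in replicate 2. The first of the 3 stood at 50.4 and 44.6, and the second at 68.2 and 57.7. The regions of this run were thus near or above the middle of their lists. Yet 3RHet had the lowest covered share of any place with a region in the replicates. Another member, from 1896832 to 1898934, was in both replicates at the percentiles 0.821 and 2.78, and the last, from 1704766 to 1705950, was in neither. The first 1805 kb of 3RHet held no region in either replicate.

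On 2LHet 3 of 4 members lay together, from 20036 to 22434, from 22772 to 32892 (10.1 kb) and from 34668 to 36662. The other lay apart, from 166862 to 169202, and all 4 were found in both replicates. On 3LHet the 14 members formed 6 runs. The widest member, from 2243604 to 2258160 (14.6 kb), corresponded to 3 regions in replicate 1 and 2 in replicate 2. The highest-scoring one ran from 594262 to 601558 (7.30 kb) and was covered to 96.6% and 97.9%. The longest stretch without a region in either replicate on a Het sequence other than 3RHet was on 3LHet, from 1395751 to 2189380 (794 kb). On YHet the 1 member, from 305632 to 306836 (1.21 kb), overlapped no region in either replicate, and its score stood at the 49.8th percentile.

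The last comparison asked how well the replicates matched in these places. Base pairs covered in both replicates divided by those covered in either, the Jaccard index, came to 0.864 over the 10 places and to 0.835 over the remainders of the 4 arms. It was 0.907 at the base of 3R, where 845 of the 2067 kb covered in either replicate of the 10 places lay. The index was 0.861 at the base of X, 0.855 at that of 2L, 0.840 at that of 3L and 0.814 on 4. On XHet it was 0.906, on 3RHet 0.850 and on 2LHet 0.823, and the lowest was 0.674 on 3LHet. Pooled over the 5 Het sequences it was 0.771, below that of the remainders. Of the regions of replicate 1 in these places, 280 of 291 (96.2%) overlapped one of replicate 2, and 264 of 292 (90.4%) the other way. In the remainders these were 3763 of 4136 (91.0%) and 3294 of 3798 (86.7%), and on the 5 Het sequences 23 of 23 and 21 of 27 (77.8%). On 3LHet all 10 regions of replicate 1 were found again, but 5 of the 14 of replicate 2 were not. The widest region found in a single replicate was 3.64 kb in replicate 1 and 3.25 kb in replicate 2.

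Of the 325 replicate-set members, 235 were matched in both replicates, 11 in replicate 1 alone, 27 in replicate 2 alone and 52 in neither. The 235 make 72.3%, with a 95% Wilson interval from 67.2% to 76.9%. The interval covers counting error only and treats regions as independent. In the remainders of the 4 arms 2674 of 3920 (68.2%, interval 66.7% to 69.7%) were in both, and the intervals overlap. Members in neither were narrow, with a median of 1309 bp against 6229 bp, and had a median score percentile of 10.9 against 64.8. The base of 2L had the most of them, 18 of 68, and the base of 3R 12 of 93. In the remainders of the 4 arms 573 of 3920 were in neither, against the 52 of 325 here.

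Scores ranked within each list also differed between places. The median percentile was 62.9 in replicate 1 and 66.4 in replicate 2 at the base of 3R, 62.1 and 61.0 at that of X, and 58.3 and 62.7 at that of 3L. It was 35.4 and 45.9 at the base of 2L, 42.0 and 52.5 on 4, and 47.3 and 21.6 on 3LHet. On XHet it was 65.1 and 60.3, on 3RHet 59.3 and 51.1 and on 2LHet 24.5 and 29.6, from at most 5 regions each. Low coverage thus did not go with low scores at the bases of X and 3L, whereas on 2LHet both were low. Median scores differed between width classes, so widths were held in classes. Among regions of 6 to 12 kb, the median percentile was 60.5 and 64.5 on 4 (21 regions in each replicate), 85.1 and 85.4 at the base of 3R (20 and 28 regions), and 74.2 and 71.6 in the remainders of the 4 arms (899 and 843 regions). In this class regions on 4 ranked below those of the arms, and those at the base of 3R above them, in both replicates. On 4 the same held at 3 to 6 kb, with 47.0 and 46.1 against 54.4 and 51.3 in the remainders. It also held for regions of at least 12 kb, with 66.9 and 69.8 against 80.3 and 80.2, from 2 and 5 regions. Regions of 1 to 3 kb on 4 were mixed, with 12.7 against 19.6 in replicate 1, and 24.9 against 18.9 in replicate 2. At the base of 3R those of 1 to 3 kb also ranked above, with 24.96 and 19.4 against 19.6 and 18.9. The remaining classes at the base of 3R were mixed. Regions of 3 to 6 kb had 54.1 against 54.4 in replicate 1, and 57.9 against 51.3 in replicate 2. Regions of at least 12 kb had 75.9 against 80.3 in replicate 1, and 81.3 against 80.2 in replicate 2.

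The sources used here give neither the read depth nor the treatment of reads that match several repeats, and all bases of a place count in its length, whether or not reads can be placed on them. Their part in the low shares of the heterochromatic places was not tested. Genes were not assigned to regions, because the annotation at hand is of another genome release.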

How the data were processed

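The 2 ChIP and 2 input libraries were made from Oregon-R embryos. Per the submitters' processing notes, the aligner was Bowtie 0.12.7. The deposited lists give, per the file headers, regions of significant enrichment on FlyBase release 5. The sources used here name neither the caller and its threshold nor the way in which the replicate set was combined. The score per region is the authors' own as deposited, on an unnamed scale, and was used as a percentile within its own list. The inputs entered through the authors' calls only. No list holds counts, so depth is unknown.

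Coordinates were read as 1-based with both ends included, and 1 end in scientific notation as a whole number. Covered shares clip regions at a place's limits, and counts, widths and gaps use whole regions inside them. Distances were counted from the proximal end of the assembled sequence, in bins of 100, 250 and 500 kb. Values are the mean ± SD of the 2 ChIP replicates. Overlap means at least 1 bp. Calculations used Python 3.11.15 with pandas 2.3.3 and numpy 2.4.6, and the interval functions were checked on simulated data. Places and lists were chosen with earlier results of these data known. Regions were named by a rule: the widest, highest-scoring and innermost replicate-set member of each place, the outermost on 4, the longest empty stretch, and all members of places with at most 6. Runs, regions at the limits, the region of at least 10 kb on 3LHet and width classes were added after values were seen. Alternatives were the top 50% of regions by score, joining regions under 1000 bp apart, the replicate-set list, limits of 1 and 3 Mb, lengths from first to last region, bins of 250 kb, an overlap of 50% and each replicate alone.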

Additional observations from a re-analysis of the deposited data

Results flagged for a closer look

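The arms differed in the sign of 2 contrasts, with both replicates of each arm on the same side, and these differences between arms were not tested. The proximal 2 Mb of 3R was covered more than the remainder of its arm, by 7.81 percentage points, while the bases of 2L, 3L and X were covered less. The innermost 500 kb of the base minus the outermost was -35.9 points on 2L and -10.5 points on 3L, while it was 5.72 points on X and 16.1 points on 3R.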

How the results depend on the processing

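Pooled over the 10 places, 12.6% of the sequence was covered, the median width was 4137 bp and the median gap 3651 bp. Averaged over the 4 arms, the base minus the remainder was -14.6 points and the innermost minus the outermost 500 kb was -6.15 points. With a single replicate these ran from 12.2% to 12.9%, 3997 to 4276.5 bp, 3551 to 3750 bp, -15.1 to -14.1 points and -6.19 to -6.10 points. Among the top 50% of regions by score they were 9.86%, 7101 bp, 7411 bp, -10.4 points and -4.99 points. The replicate-set list gave 14.3%, a gap of 2947 bp, -17.3 points and -7.22 points. Joining neighbours gave 5552 bp and 6172 bp. With a limit of 1 Mb the share was 9.35% and the base minus the remainder -17.2 points, with 3 Mb 15.8% and -11.6 points, and from the first to the last region the share was 18.0%. Bins of 250 kb gave -5.48 points. Alternatives added after seeing the data were the share and the base minus the remainder without 3R, 8.40% and -22.1 points, and the innermost minus the outermost bin without X, -10.1 points. Of regions in either replicate, 93.3% overlapped one in the other, 90.4% with an overlap of 50% and 89.7% among the highest scores. Replicate-set members found in both came to 97.7% among the highest scores. For single places other than YHet, leaving aside single replicates and limits that do not touch a place, 32 recomputed values moved by less than the SD of the replicates, 92 by more, and 1 changed sign, the base of 3R minus the remainder, at -1.04 points with 3 Mb, a limit that takes in the poorly covered stretch beside the base. The base of 3R had the highest share under each alternative except the one from first to last region, where XHet had 79.4%. No paired analysis was possible because the inputs have no values here, so the replicate numbers they share with the ChIP libraries pair nothing.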

Other observations

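A region on 3LHet and another on 3RHet recurred in both replicates at almost the lowest scores of their lists. On 3LHet a region of about 1.5 kb, spanning 2189381 to 2190883 in the first list and 2189499 to 2190996 in the second, stood at the percentiles 0.346 and 0.0587. The 3RHet member from 1896832 to 1898934, at 0.821 and 2.78, was of the same kind. These regions were picked after their values were seen, and how often such regions occur in the other places is not given here. Where a region of 1 replicate matched a single region of the other, the median shift of its edges was 206 bp over the 10 places (195 pairs) and 210 bp over the remainders of the 4 arms (2026 pairs), so edges were placed about as closely here as elsewhere. On XHet the shift was 77.5 bp, from 3 pairs.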
